A study of Mus musculus with 24 samples.

Results

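Transcripts of 10 chemokine genes, Cxcl9, Cxcl10, Cxcl11, Cxcl16, Cxcl1, Cxcl5, Cxcl12, Ccl2, Ccl5 and Ccl7, were followed through the reprogramming of mouse neural precursor cells (NPCs) into induced pluripotent stem cells (iPSCs), with and without interferon γ (IFNγ). The genes were chosen by name, with no measured value in the rule but with earlier results of these data known. They were matched to Ensembl identifiers in GENCODE release 21 for the mouse. All 10 are among the 37315 genes with normalized counts. The data were 24 RNA-seq libraries, 2 of each of 12 populations. These were embryonic stem cells (ESCs) in serum with leukemia inhibitory factor (LIF), NPCs made from them, and control and IFNγ-treated reprogramming cells. Cells of both arms were collected at day 2, at day 5, and at day 7 in 3 fractions sorted by an X-linked green fluorescent reporter, X-GFP. These are called the negative, medium and high fractions below.

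All libraries came from PaX, 1 female ESC line that is a hybrid of 129S1/SvImJ and CAST/EiJ. It carries X-GFP in Hprt on a musculus X chromosome with a truncated Tsix, a red fluorescent reporter driven by the Nanog promoter, and a doxycycline-inducible cassette of c-Myc, Klf4, Oct4 and Sox2 with its transactivator in Sp3. Control and IFNγ-treated cells alike received doxycycline, ascorbic acid and LIF, and grew on irradiated fibroblast feeders from male embryos. IFNγ (10 ng/ml) was added at day 0 and taken away at day 5, so that the day 7 cells had spent their last days without it. Feeders were removed at day 2 by a dye they had been loaded with, and from day 5 on by sorting for the surface marker SSEA1. The methods call the replicates independent without saying what was separate, so p-values measure the spread between these libraries.

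Chemokines are small secreted proteins that guide the movement of cells, mostly leukocytes, through G protein-coupled receptors. The products of Cxcl9, Cxcl10 and Cxcl11 are the ligands of CXCR3 on activated T cells and natural killer cells, and their genes are among the classical targets of IFNγ. IFNγ signals through its receptor and the kinases JAK1 and JAK2 to genes with γ-activated sites (GAS) and, through the factor IRF1, to genes with interferon-stimulated response elements (ISREs), while inflammatory chemokine genes also answer to NF-κB. CXCL1 and CXCL5 attract neutrophils through CXCR2, CCL2 and CCL7 attract monocytes through CCR2, CCL5 attracts T cells and monocytes, CXCL16 is a membrane-bound ligand of CXCR6, and CXCL12 is the ligand of CXCR4 and of the scavenging receptor ACKR3.

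The CXCR3 ligand genes lie next to each other on the minus strand of chromosome 5 in GRCm38/mm10. Cxcl9 (ENSMUSG00000029417) spans 92321347 to 92328079, Cxcl10 (ENSMUSG00000034855) spans 92346638 to 92348889, and Cxcl11 (ENSMUSG00000060183) spans 92359544 to 92365485. The gaps between them are 18558 and 10654 bp. GENCODE classes Cxcl11 as a polymorphic pseudogene, and its values are those of a transcript. Cxcl5 (ENSMUSG00000029371, 90759360 to 90761624) and Cxcl1 (ENSMUSG00000029380, 90891241 to 90893115) lie on the plus strand of the same chromosome, 129616 bp apart. On chromosome 11, Ccl2 (ENSMUSG00000035385, 82035571 to 82037453, plus strand) and Ccl7 (ENSMUSG00000035373, 82045712 to 82047525, plus strand) are 8258 bp apart. The other members of that chromosome are Ccl5 (ENSMUSG00000035042, 83525778 to 83530518, minus strand) and Cxcl16 (ENSMUSG00000018920, 70453983 to 70459984, minus strand). Cxcl12 (ENSMUSG00000061353, plus strand) is on chromosome 6 from 117168535 to 117181367.

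Sequence upstream of the annotated start was read for the 4 of the 10 genes that the RefSeq promoter table on GRCm38.p6 holds, 250 bases each, since they cover the member with the largest log2 fold change at day 2 (Cxcl9), its neighbor Cxcl10, and members not past the threshold there (Cxcl1 and Cxcl12). Each is printed 5′ to 3′ on the strand of its gene. The windows are chr5:92348890-92349139 for Cxcl10, chr5:92328080-92328329 for Cxcl9, chr5:90890995-90891244 for Cxcl1 and chr6:117168285-117168534 for Cxcl12. Capitals mark matches to an ISRE motif or to the NF-κB consensus.
Cxcl10: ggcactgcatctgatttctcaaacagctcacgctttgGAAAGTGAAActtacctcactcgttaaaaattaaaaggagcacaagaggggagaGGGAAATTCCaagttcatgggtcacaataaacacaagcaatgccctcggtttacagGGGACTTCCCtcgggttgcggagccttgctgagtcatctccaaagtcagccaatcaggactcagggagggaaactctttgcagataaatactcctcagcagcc
Cxcl9: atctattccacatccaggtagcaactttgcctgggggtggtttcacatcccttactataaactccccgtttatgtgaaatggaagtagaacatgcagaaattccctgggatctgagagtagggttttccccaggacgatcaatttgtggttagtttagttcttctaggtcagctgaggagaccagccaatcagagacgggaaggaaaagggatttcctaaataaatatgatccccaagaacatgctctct
Cxcl1: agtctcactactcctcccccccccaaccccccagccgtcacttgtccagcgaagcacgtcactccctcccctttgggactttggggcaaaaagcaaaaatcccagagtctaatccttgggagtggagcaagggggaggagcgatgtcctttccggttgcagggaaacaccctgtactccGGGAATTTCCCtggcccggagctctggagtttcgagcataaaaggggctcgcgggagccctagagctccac
Cxcl12: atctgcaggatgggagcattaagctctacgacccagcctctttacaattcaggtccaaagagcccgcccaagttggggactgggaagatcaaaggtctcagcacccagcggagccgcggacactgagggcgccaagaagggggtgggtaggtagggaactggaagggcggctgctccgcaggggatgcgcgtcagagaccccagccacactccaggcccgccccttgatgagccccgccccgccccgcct

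A set of 3 patterns was searched on both strands: the GAS core TTCNNNGAA, the ISRE core, GAAA repeated after 2 bases of any kind, and the NF-κB consensus, where N is any base. In Cxcl10 an ISRE match lay at positions -213 to -204 from the start site, and NF-κB matches lay at -159 to -150 and at -103 to -94, all on the strand of the gene. In Cxcl1 an NF-κB match at -71 to -62 overlapped one on the opposite strand at -70 to -61. The windows of Cxcl9 and Cxcl12 held none of these patterns, which says only that these letters are not in 250 bases. Of 32851 promoter windows of the same length, 7.02% held the GAS core, 2.98% the ISRE core and 3.90% the NF-κB consensus. A match is a description of letters and not evidence of binding.

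**Figure D1:**
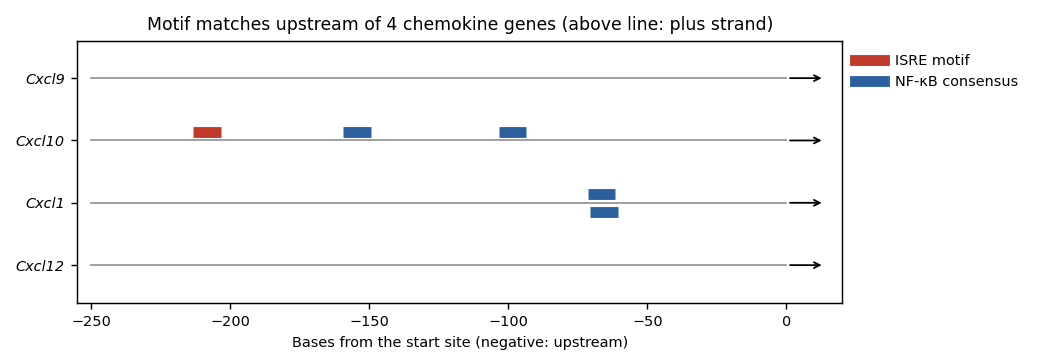
Matches to the ISRE core (red) and the NF-κB consensus (blue) in the 250 bases upstream of Cxcl9, Cxcl10, Cxcl1 and Cxcl12, against the distance in bases from the start site, with matches on the strand of the gene above each line and those on the other strand below it. Cxcl10 holds 1 ISRE and 2 NF-κB matches, Cxcl1 holds 2 overlapping NF-κB matches, and the other windows hold none.

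Each library held 24746109 to 37056508 reads on genes. The labels were checked on marker genes. The summed normalized counts of 4 ESC markers (Pou5f1, Nanog, Zfp42, Esrrb) were 92451 and 87432 in the ESC libraries and 76.8 and 55.3 in NPCs. The 5 neural precursor markers summed to 46775 and 44352 in NPCs and to 9454 and 9060 in ESCs. This list holds Sox2, which is also in the reprogramming cassette. The day 2 libraries carried RNA of another source. The 4 Y-linked genes summed at day 2 to 253 and 218 without and to 125 and 223 with IFNγ, against at most 1.94 in ESCs and NPCs and at most 12.5 at later days. The 8 fibroblast markers summed to 61408 and 41396 in the control arm of day 2 and 30729 and 25195 in its IFNγ arm, but also to 30196 and 43108 in NPCs, which had no feeders. At day 7 the same sum was 2125 to 5612 in the 6 control libraries and 612 to 1035 in the 6 IFNγ-treated ones, mostly from Dcn. Of the 7 macrophage and leukocyte markers, Ptprc and Tyrobp were at most at 16.0 and 5.09 in any library. Adgre1, Csf1r, Itgam and Fcer1g are not given singly here, and a presence of leukocytes was not tested. The day 7 sum came mainly from Cd68. It was 1145 to 2970 in day 7 control and 540 to 1228 in day 7 IFNγ-treated libraries. These values stand beside the results below, and their part in them was not tested.

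**Figure D2:**
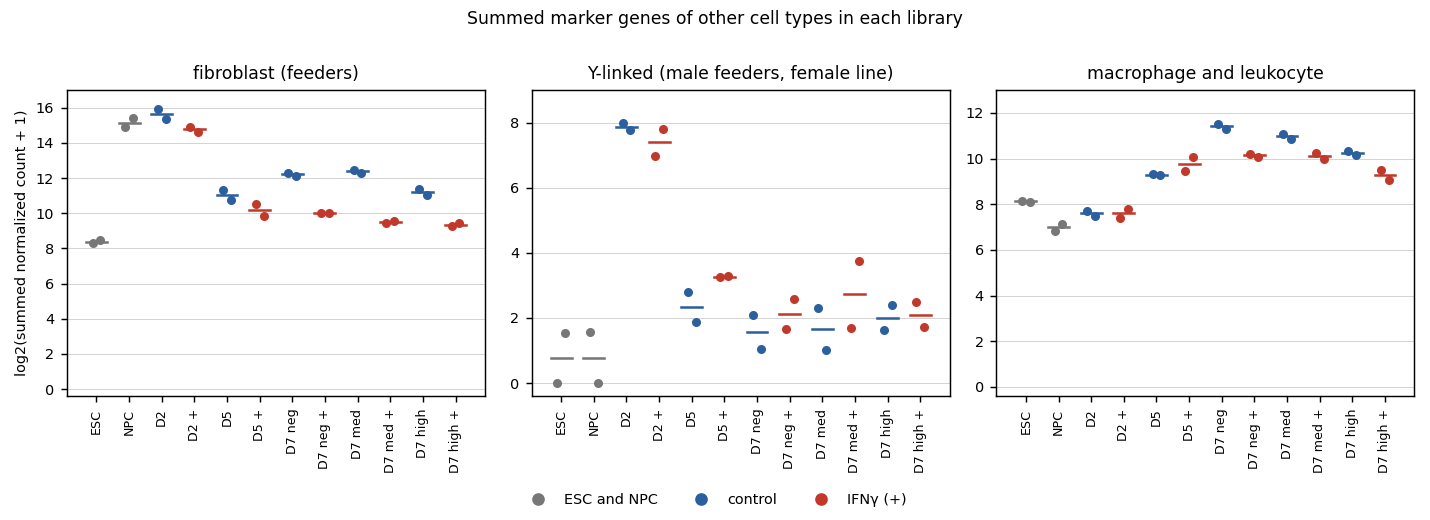
Log2 of the summed normalized counts plus 1 of 8 fibroblast, 4 Y-linked and 7 macrophage and leukocyte markers in each library, with points for libraries, lines for means and + for IFNγ. The Y-linked sum is 125 to 253 in the 4 day 2 libraries, and the fibroblast and leukocyte sums of day 7 are lower in every IFNγ-treated library than in the control libraries of the same fraction.

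Within each day and fraction the IFNγ arm was compared with the control arm, to ask which chemokine transcripts respond and for how long. Tests used limma on log2(normalized count + 1) over all genes with a mean above 10 in the 4 libraries, two-sided, with a threshold of 0.1 on the Benjamini-Hochberg adjusted p. Normalized counts are reads divided by 1 size factor per library. Where a group has at most 3 reads in each library, a fold change is a lower bound.

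At day 2, 6 of the 10 genes were higher with IFNγ, Cxcl9, Cxcl10, Cxcl11, Cxcl16, Ccl2 and Ccl5, in a comparison that called 5.03% of all 15697 genes tested higher. The median log2 fold change of the 10 genes was 1.91, against 0.01 over all genes tested. Cxcl9, Cxcl11, Cxcl16 and Ccl5 passed the filter only through the IFNγ arm, as their control means were under 10. The filter thus favored their being higher, in the count and in the median. DESeq2 on the recovered reads called 4 members and 655 of all genes higher, and gave 2 members no adjusted p. With edgeR the counts were 6 members and 784 genes. At day 5, 3 of the 9 genes tested were higher, Cxcl9, Cxcl10 and Cxcl11, where 1.65% of 15133 genes were called higher. The median of the 9 was 0.75 against 0.00 over all genes. Cxcl9, Cxcl10 and Cxcl11 all passed the filter at day 5 only through the IFNγ arm, with control means of 0, 3.86 and 6.99. DESeq2 called 3 members higher at day 5, Ccl2 among them, and 556 of all genes, and gave 2 members no adjusted p. With edgeR the counts were 2 members and 257 genes. At day 7 the calls went both ways. In the negative fraction 2 of 7 genes were higher, Cxcl11 and Cxcl12, and 3 were lower, Cxcl16, Cxcl1 and Ccl7, where 31.1% of all genes tested were called higher and 30.8% lower. That balance depended on the scaling: with libraries rescaled to equal totals, 6730 genes were called higher and 3417 lower, against 4836 and 4781, and the median log2 fold change of all genes was 0.17 rather than 0.02, while these 5 genes kept their calls and directions. The same 5 genes changed in the same directions in the medium fraction, where 33.3% of all genes were called higher and 29.6% lower. In the high fraction Cxcl11 and Ccl2 were higher and Cxcl16 and Ccl7 lower among 5 genes tested. There 18.1% of all genes were called higher and 20.4% lower, and Ccl2 passed the filter only through the IFNγ arm. The share of members called at day 7 was thus near that of all genes in the negative and medium fractions, of which 61.9% and 62.9% were called in either direction. As the samples are bulk RNA, fewer cells that make a transcript and less of it per cell cannot be told apart.

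**Figure D3:**
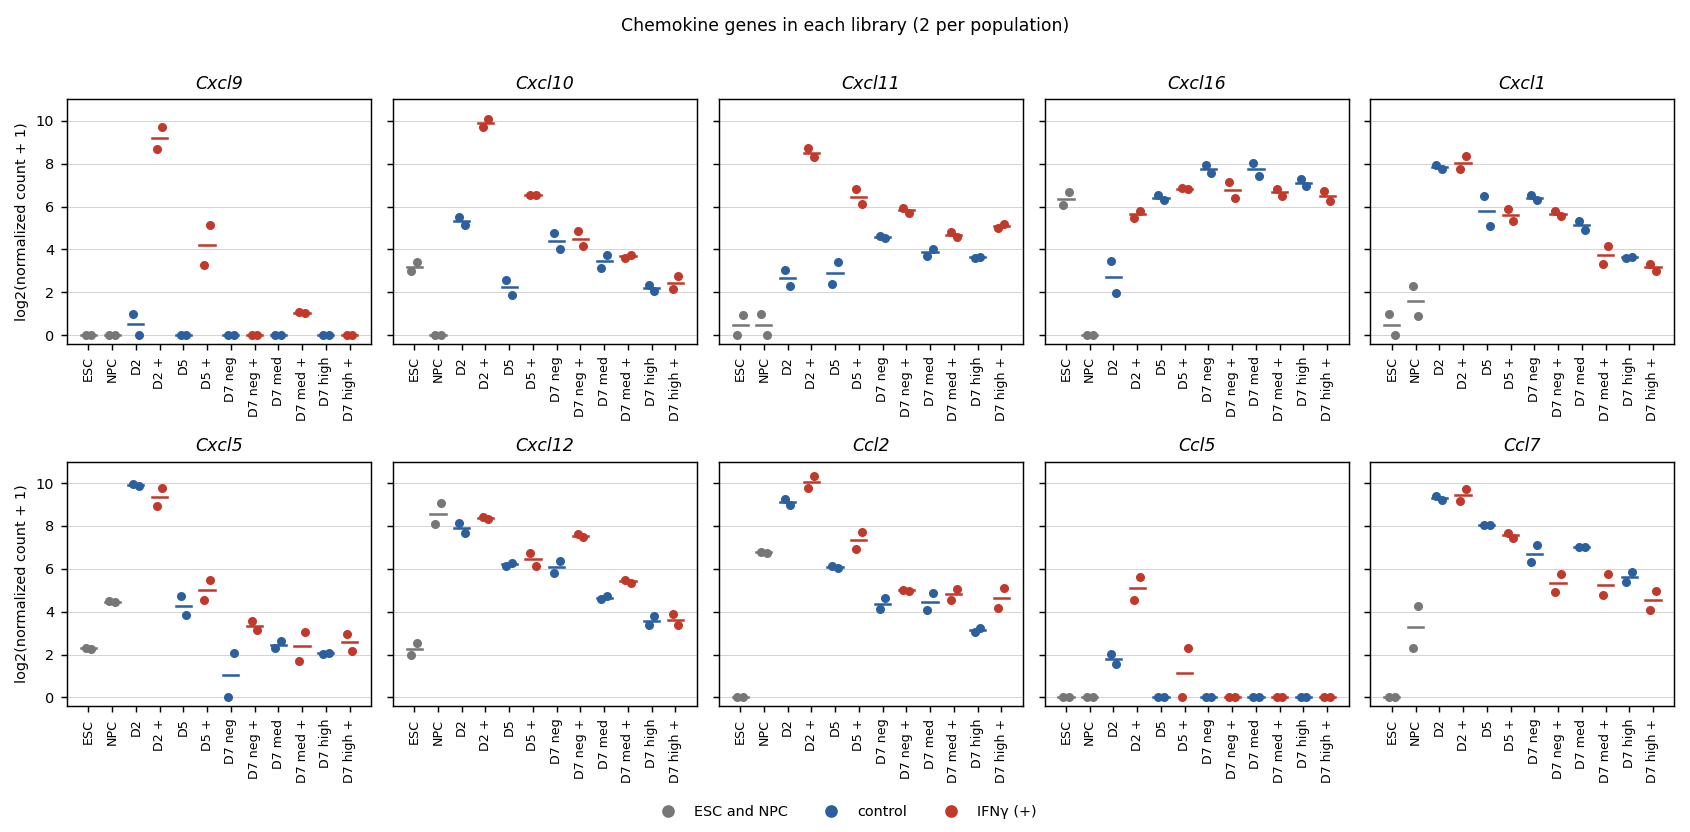
Log2 of the normalized count plus 1 of the 10 genes in each library of the 12 populations, with points for libraries, lines for means, gray for ESCs and NPCs, blue for control and red with + for IFNγ. Cxcl9, Cxcl10 and Cxcl11 stand out in the treated libraries of day 2 and day 5, Cxcl1, Cxcl5, Ccl2 and Ccl7 are high in both arms of day 2, and Cxcl16 is absent from NPCs.

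**Figure D4:**
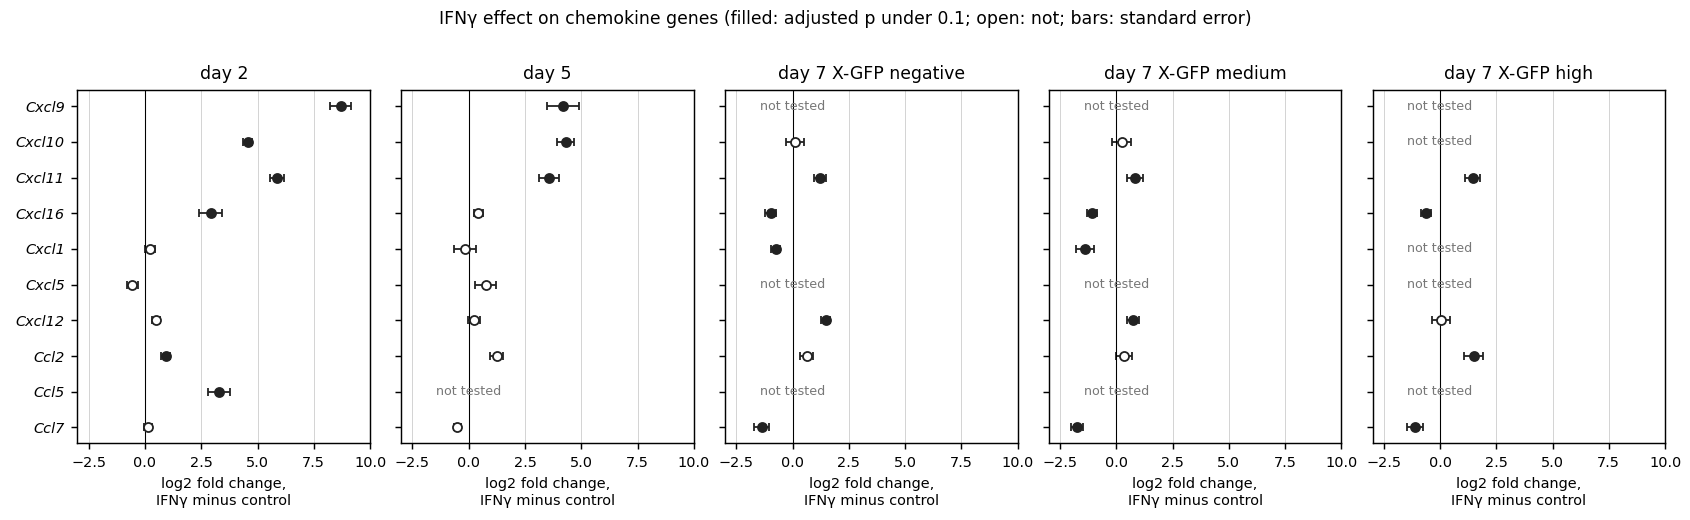
Log2 fold change of IFNγ-treated over control cells for each of the 10 genes in the 5 comparisons, as limma estimates with standard errors, filled where the adjusted p was under 0.1. Cxcl9, Cxcl10 and Cxcl11 lie at 8.69, 4.57 and 5.85 at day 2, and at day 7 Cxcl11 is the only one of them past the threshold, while Cxcl16 and Ccl7 lie below 0 in all 3 fractions.

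Cxcl9 was nearly silent without IFNγ. Its normalized counts were 409 and 835 in the IFNγ-treated libraries of day 2, replicates 1 and 2 in this order as in all pairs of values here, against 1.02 and 0 in control. Both treated libraries were far above both controls, at least 206-fold higher, with a log2 fold change of 8.69 (standard error 0.48, adjusted p = 0.000173). At day 5 they were 8.62 and 34.0 against 0 and 0, at least 8.22-fold higher (adjusted p = 0.0579). The call at day 5 was not made when either control library was left out (adjusted p = 0.132 and 0.115), with no filter on low values (0.11), or by edgeR on the recovered reads (0.116). At day 7 no library had more than 1 read of Cxcl9, and ESCs and NPCs had none.

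Cxcl10 had a level in control cells as well. It was at 44.8 and 34.7 normalized counts in the control arm of day 2 and 841 and 1099 in the IFNγ arm, 24.4-fold higher (log2 fold change 4.57, standard error 0.20, adjusted p = 4.9e-05). At day 5 the control arm had 5.05 and 2.66 and the IFNγ arm 92.3 and 92.5, 23.96-fold higher (log2 fold change 4.31, adjusted p = 0.00254). The fold was thus nearly equal at both days, while the treated level was 970.3 ± 182 at day 2 and 92.4 ± 0.185 at day 5 (SD, n = 2 each). In the negative fraction of day 7 the values were 26.3 and 15.0 in control and 27.9 and 16.8 with IFNγ. The groups overlapped, with a log2 fold change of 0.12 (standard error 0.39, adjusted p = 0.814). The medium fraction had 7.91 and 12.4 in control and 11.2 and 12.5 with IFNγ, also overlapping (log2 fold change 0.24, standard error 0.42, adjusted p = 0.661). The high fraction had 4.12 and 3.20 in control and 3.43 and 5.78 with IFNγ, too few to be tested. In a test of the difference itself, the IFNγ effect in the negative fraction minus that at day 5 was -4.19 on the log2 scale (standard error 0.56, adjusted p = 0.00126).

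Cxcl11 was higher with IFNγ at each time, also after IFNγ had been removed. At day 2 it went from 7.13 and 3.97 normalized counts in control to 424 and 317 with IFNγ, 66.8-fold higher (log2 fold change 5.85, standard error 0.32, adjusted p = 0.000162). At day 5 it went from 4.21 and 9.77 to 112 and 68.0, 12.9-fold higher (log2 fold change 3.56, standard error 0.45, adjusted p = 0.0197). All treated libraries of both days were above all controls. In the negative fraction of day 7 control libraries had 24.1 and 22.5 and IFNγ-treated ones 61.2 and 50.5, 2.39-fold higher (log2 fold change 1.22, standard error 0.25, adjusted p = 0.003). The medium fraction had 11.9 and 15.5 against 26.9 and 23.0 with IFNγ, 1.82-fold higher (adjusted p = 0.0619). The high fraction had 11.3 and 11.7 against 30.8 and 35.8, 2.89-fold higher (log2 fold change 1.45, standard error 0.33, adjusted p = 0.00641). In each fraction the treated libraries were above the controls. The call in the medium fraction was not made without control replicate 1 (adjusted p = 0.283) or IFNγ-treated replicate 1 (0.195), with all 24 libraries in 1 fit (0.107), without the filter (0.105) or with DESeq2 (0.327). The effect in the negative fraction minus that at day 5 was -2.34 on the log2 scale (standard error 0.54, adjusted p = 0.0118). The effects in the medium and high fractions did not pass a test of difference from the negative one (adjusted p = 0.585 and 0.726).

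Between day 2 and day 5 the IFNγ effects of Cxcl9 and Cxcl11 differed by -4.49 (standard error 0.93, adjusted p = 0.119) and -2.29 (standard error 0.61, adjusted p = 0.26). That of Cxcl10 differed by -0.26 (standard error 0.41, adjusted p = 0.868). Only the day 5 cells were sorted for SSEA1, and the day 2 libraries carried RNA of another source. Time, sort and that RNA thus cannot be told apart in these differences. For 0 of 9 members did limma call a difference between these effects, with 5 at an unadjusted p under 0.05, while DESeq2 called 2 and edgeR 0, and limma called 0.676% of all genes. Cxcl10 and Cxcl11 have antisense neighbors. Art3, on the plus strand, shares 133 bp of exon with Cxcl10, and Gm2673, a processed pseudogene, shares 1582 bp with Cxcl11. The libraries were stranded, but the strand setting of the counting is not given in the sources used here. Gm2673 had at most 1.16 normalized counts in any library. Art3 was at 42.8 and 53.6 in day 2 control and 30.8 and 33.6 with IFNγ, and did not pass the threshold in any of the 5 IFNγ comparisons.

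Ccl5 had reads almost only in day 2 cells given IFNγ, at 22.4 and 48.5 normalized counts against 3.06 and 1.99 in control. Both treated libraries were above both controls, at least 11.8-fold higher (log2 fold change 3.29, standard error 0.49, adjusted p = 0.0155). At day 5 it was at 0 and 3.95 with IFNγ and 0 in control, and the other populations had no read of it.

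Ccl2 was abundant in day 2 cells of both arms. It was at 617 and 510 normalized counts in control and 863 and 1294 with IFNγ, 1.91-fold higher (log2 fold change 0.91, standard error 0.19, adjusted p = 0.0524). Both treated libraries were above both controls, yet the call was not made when control replicate 1 (adjusted p = 0.128) or 2 (0.206) was left out. It was not made either without the filter (0.154) or in 1 fit of all 24 libraries (0.141). At day 5 control cells had 69.9 and 63.9 and IFNγ-treated cells 122 and 210 (209.6), with a log2 fold change of 1.24 (standard error 0.28, adjusted p = 0.116). That difference was not past the threshold, but it was without IFNγ-treated replicate 1 (adjusted p = 0.0227), with all 24 libraries in 1 fit (0.0304) and with DESeq2 (0.0108). The negative fraction of day 7 had 16.5 and 23.6 in control and 31.1 and 30.7 with IFNγ (log2 fold change 0.62, standard error 0.30, adjusted p = 0.112), a difference past the threshold without control replicate 2 (0.0724) or with libraries rescaled to equal totals (0.0537). The medium fraction had 15.8 and 27.9 against 22.4 and 32.4, which overlapped. In the high fraction Ccl2 rose from 7.22 and 8.54 to 17.1 and 33.5, 3.21-fold (log2 fold change 1.499, standard error 0.42, adjusted p = 0.0182), and this call was not made without IFNγ-treated replicate 2 (0.137), with no filter (0.101) or with DESeq2 (0.106).

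Ccl7, the neighbor of Ccl2, was lower with IFNγ at day 7. At day 2 it had 668 and 589 normalized counts in control and 571 and 844 with IFNγ. The groups overlapped (log2 fold change 0.15, standard error 0.18, adjusted p = 0.71). At day 5 the values were 267 and 267 in control and 206 and 172 with IFNγ, both treated libraries lower, with a log2 fold change of -0.50 (standard error 0.16, adjusted p = 0.193). At day 7 the treated libraries lay below the controls in each fraction. The negative fraction had 77.9 and 135 in control and 29.0 and 52.5 with IFNγ, 2.62-fold lower (log2 fold change -1.37, standard error 0.33, adjusted p = 0.00681). The medium fraction had 128 and 128 against 26.9 and 52.3, 3.24-fold lower (log2 fold change -1.75, standard error 0.29, adjusted p = 0.000586). The high fraction had 41.2 and 57.6 against 16.0 and 30.0, 2.15-fold lower (log2 fold change -1.12, standard error 0.34, adjusted p = 0.0282), a call not made without control replicate 2 (0.19), without the filter (0.148) or with DESeq2 (0.114). The fibroblast sum was lower in the same treated libraries of day 7. The Y-linked sum was at most 12.5 at that day and overlapped between the arms in each fraction. A relation of these sums to Ccl7 was not tested.

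The ratio of Ccl2 to Ccl7 within a library does not depend on the scaling of that library. Taken per kilobase of exon, and chosen for description after the values were seen, it was 0.650 and 0.610 in day 2 control and 1.06 and 1.08 with IFNγ. At day 5 it was 0.184 and 0.168 in control and 0.415 and 0.860 with IFNγ. The negative fraction had ratios of 0.149 and 0.123 against 0.756 and 0.412, in the medium fraction 0.0866 and 0.153 against 0.587 and 0.436, and in the high fraction 0.123 and 0.104 against 0.754 and 0.785. In each of these pairs of groups both treated libraries had the higher ratio.

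Cxcl16 was higher with IFNγ at day 2 and lower at day 7. NPCs had no read of it. Day 2 control cells had 10.2 and 2.98 normalized counts and IFNγ-treated cells 43.9 and 55.4, 7.55-fold higher (log2 fold change 2.92, standard error 0.52, adjusted p = 0.0301), a call not made without the filter on low values (0.107). At day 5 the values were 90.9 and 78.2 in control and 116 and 112 with IFNγ, the treated libraries higher but not past the threshold (log2 fold change 0.43, standard error 0.20, adjusted p = 0.303). At day 7 the order was the opposite. The negative fraction had 244 and 188 in control and 143 and 83.1 with IFNγ, 1.91-fold lower (log2 fold change -0.97, standard error 0.24, adjusted p = 0.00858). The medium fraction had 264 and 171 against 113 and 89.9, 2.14-fold lower (log2 fold change -1.07, standard error 0.21, adjusted p = 0.00196). The high fraction had 156 and 123 against 106 and 75.1, 1.54-fold lower (log2 fold change -0.62, standard error 0.22, adjusted p = 0.0465). The call in the high fraction was not made without control replicate 1 (adjusted p = 0.346) or IFNγ-treated replicate 2 (0.167), without the filter (0.169), with all 24 libraries in 1 fit (0.242) or with DESeq2 (0.118). The IFNγ effect in the negative fraction minus that at day 5 was -1.40 on the log2 scale (standard error 0.36, adjusted p = 0.0173). Cxcl16 shares 552 bp of exon with Zmynd15 on the other strand, which had 7.13 and 12.9 in day 2 control and 16.8 and 14.8 with IFNγ at the same day.

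The gene of the CXCL16 receptor, Cxcr6, was lower with IFNγ in the same fractions of day 7. Its normalized counts were 47.2 and 41.8 in control cells of the negative fraction and 11.8 and 14.8 in treated cells (log2 fold change -1.67, adjusted p = 0.00124). They were 53.4 and 44.4 against 7.84 and 10.5 in the medium fraction (log2 fold change -2.30, adjusted p = 0.000219), and 16.5 and 13.9 against 1.14 and 9.25 in the high fraction (log2 fold change -1.78, adjusted p = 0.0557). The macrophage and leukocyte sum, which came mainly from Cd68, was lower in these treated libraries too. Its relation to Cxcr6 was not tested.

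The neutrophil attractants Cxcl1 and Cxcl5 did not pass the threshold at day 2 or day 5. Cxcl1 had 243 and 213 normalized counts in day 2 control and 212 and 330 (330.5) with IFNγ, overlapping (log2 fold change 0.22, standard error 0.22, adjusted p = 0.64). Cxcl5 had 985 and 925 against 489 and 860 (859.9), both treated libraries lower (log2 fold change -0.56, standard error 0.24, adjusted p = 0.251), and it passed the threshold without IFNγ-treated replicate 2 (0.00316). At day 5 Cxcl1 had 90.1 and 32.9 in control and 58.6 and 39.5 with IFNγ, and Cxcl5 had 25.2 and 13.3 against 22.4 and 44.3. Both genes overlapped between the arms at that day. At day 7 Cxcl1 was lower with IFNγ in the negative fraction, 54.8 and 45.5 against 92.2 and 77.3 in control, 1.69-fold (log2 fold change -0.75, standard error 0.21, adjusted p = 0.0144). This call was not made without control replicate 1 (0.107) or with all 24 libraries in 1 fit (0.205). In the medium fraction Cxcl1 had 39.5 and 28.9 in control and 8.96 and 16.7 with IFNγ, 2.66-fold lower (log2 fold change -1.39, standard error 0.38, adjusted p = 0.0107). The high fraction had 11.3 and 11.7 against 9.14 and 6.93, under the filter on low values. Cxcl5 had at most 10.7 normalized counts in any day 7 library.

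In the IFNγ-treated cells of day 2, replicate 2 had more of Cxcl9, Cxcl10, Cxcl16, Cxcl1, Cxcl5, Ccl2, Ccl5 and Ccl7 than replicate 1, and less of Cxcl11 and Cxcl12. Replicate 2 also had the larger Y-linked sum, 223 against 125, and the smaller fibroblast sum. These are single libraries, and a relation of the sums to the members was not tested.

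Cxcl12 was higher with IFNγ in the negative and medium fractions of day 7. At day 2 it had 283 and 200 (200.5) normalized counts in control and 343 and 325 with IFNγ, both treated libraries higher (log2 fold change 0.48, standard error 0.18, adjusted p = 0.195), past the threshold without control replicate 1 (0.0978). At day 5 it had 69.9 and 76.4 against 106 and 69.6, which overlapped (log2 fold change 0.23, standard error 0.26, adjusted p = 0.668). In the negative fraction of day 7 it rose from 54.9 and 80.5 to 194 and 177, 2.75-fold (log2 fold change 1.47, standard error 0.20, adjusted p = 0.000318). In the medium fraction it rose from 22.7 and 25.8 to 43.7 and 39.7, 1.72-fold (log2 fold change 0.76, standard error 0.27, adjusted p = 0.0363), a call not made without control replicate 1 (0.189) or with DESeq2 (0.241). The high fraction had 9.28 and 12.8 in control and 13.7 and 9.25 with IFNγ, which overlapped (log2 fold change 0.04, standard error 0.42, adjusted p = 0.951). The treated libraries of the negative fraction were thus above all other day 7 libraries. The fibroblast sum was lower in them than in their controls, and its relation to Cxcl12 was not tested.

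Interaction tests compared these effects of Cxcl12. The effect in the negative fraction exceeded that of day 5 by 1.24 on the log2 scale (standard error 0.35, adjusted p = 0.0273), a call not made without control replicate 1 of the negative fraction (0.11). The effect in the high fraction minus that in the negative fraction was -1.42 (standard error 0.42, adjusted p = 0.0421). This call was not made without control replicate 1 (adjusted p = 0.158) or IFNγ-treated replicate 1 (0.124) of the negative fraction or control replicate 2 of the high fraction (0.144), without the filter (0.109) or with DESeq2 (0.121). The medium minus the negative effect was -0.71 (standard error 0.31, adjusted p = 0.191). For 0 of 7 members did limma call a difference between these fractions, with 1 at an unadjusted p under 0.05, and DESeq2 and edgeR called 0 each, where limma called 15.7% of all genes. Between the high and negative fractions limma called 1 of 7, Cxcl12, and 22.8% of all genes. Between the negative fraction and day 5 it called 4 of 8, Cxcl10, Cxcl11, Cxcl16 and Cxcl12, and 40.3% of all genes.

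The receptor genes of Cxcl12 were lower with IFNγ at day 7. Cxcr4 had 172 and 146 normalized counts in control and 118 and 111 in treated cells of the negative fraction (log2 fold change -0.47, standard error 0.16, adjusted p = 0.0311), and 91.9 and 77.4 against 22.4 and 29.3 in the medium fraction (log2 fold change -1.68, adjusted p = 0.000302). Ackr3 had 1396 and 1335 against 695 and 700 (699.8) in the negative fraction (log2 fold change -0.97, adjusted p = 1.38e-05), and 760.0 and 758 against 290.0 and 294 in the medium fraction (log2 fold change -1.38, adjusted p = 2.07e-06). Both receptor genes were thus lower in both treated libraries of the fractions in which Cxcl12 was higher. In the high fraction, where Cxcl12 overlapped between the arms, their log2 fold changes were -0.88 and -0.78 (adjusted p = 0.0647 and 0.00322). At day 2 Cxcr4 and Ackr3 had log2 fold changes of 0.22 and 0.12 (adjusted p = 0.585 and 0.291).

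**Figure D5:**
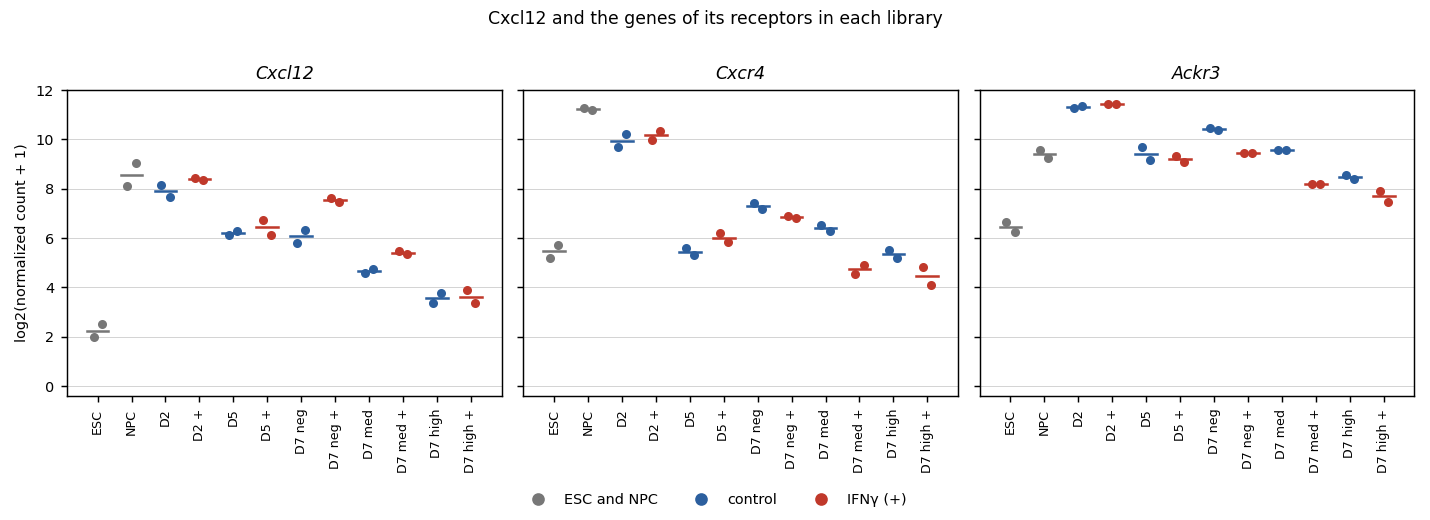
Log2 of the normalized count plus 1 of Cxcl12 and of its receptor genes Cxcr4 and Ackr3 in each library, with points for libraries, lines for means and + for IFNγ. In the negative fraction of day 7 Cxcl12 is at 194 and 177 normalized counts with IFNγ and 54.9 and 80.5 without, while Cxcr4 and Ackr3 are lower with IFNγ.

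Without IFNγ the levels of the genes differed between the populations. Comparing NPCs with ESCs, 4 members could be tested and all 4 were called, in a comparison that called 85.6% of all genes. Each of the 4 passed the filter on low values only through the group where it was high. The filter thus favored these calls, and their count says little about the members. Cxcl12 rose from 2.95 and 4.76 normalized counts in ESCs to 272 and 534 in NPCs (log2 fold change 6.33, standard error 0.40, adjusted p = 2.88e-05). Ccl2 rose from 0 in both to 111 and 105, at least 37.3-fold, and Cxcl5 from 3.93 and 3.81 to 21.4 and 21.1. Cxcl16 had 66.8 and 101 in ESCs and was at least 30.2-fold lower in NPCs, where it had no read. Cxcl10 had 6.88 and 9.52 in ESCs and no read in NPCs.

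From NPCs to day 2 control cells 5 of 6 members tested rose, where 31.6% of all genes were called higher. Of these, Cxcl1 and Cxcl10 passed the filter on low values only through day 2, with NPC means of 2.38 and 0. Cxcl5 went from 21.4 and 21.1 to 985 and 925, 45.0-fold (log2 fold change 5.43, standard error 0.17, adjusted p = 3.16e-05). Cxcl1 rose 95.8-fold from 3.89 and 0.878, Ccl7 56.3-fold from 3.89 and 18.4, Ccl2 5.21-fold, and Cxcl10 at least 14.3-fold. Cxcl12 had 283 and 200 (200.5) at day 2, which overlapped with NPCs (log2 fold change -0.68, standard error 0.34, adjusted p = 0.13), and it was called lower without NPC replicate 1 (0.00143). These are also the libraries with the Y-linked reads. Feeders were present at day 2 and absent from NPC cultures, so RNA of reprogramming cells and RNA of feeders cannot be told apart in this comparison.

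From day 2 to day 5 control cells all 7 members tested changed, where 70.6% of all genes were called. Of these members 6 were lower, as were 35.6% of all genes. Cxcl10 passed the filter on low values only through day 2, and Cxcl16 only through day 5. Cxcl5 fell 49.5-fold to 25.2 and 13.3 (log2 fold change -5.62, standard error 0.29, adjusted p = 8.99e-06), Cxcl10 fell 10.3-fold and Ccl2 8.43-fold. Cxcl1, Cxcl12 and Ccl7 fell 3.72-fold, 3.31-fold and 2.35-fold. Cxcl16 rose 12.8-fold (log2 fold change 3.68, standard error 0.51, adjusted p = 0.000594). The Y-linked sum fell from 253 and 218 to 5.89 and 2.66 over the same step, and the fibroblast sum from 61408 and 41396 to 2574 and 1712. Day 5 cells were sorted for SSEA1 and day 2 cells were not. Time, sort and feeder RNA thus cannot be told apart over this step.

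Among control cells of day 7, all 7 members tested were lower in the high than in the negative fraction, where 39.3% of all genes were called lower. Their median log2 fold change was -1.23, against -0.04 over all genes tested. Cxcl10 and Ccl2 passed the filter on low values only through the negative fraction, with means of 3.66 and 7.88 in the high one. The filter thus favored their being lower, and Cxcl5, at the floor in both fractions, was not tested. Cxcl1 was 7.34-fold lower (log2 fold change -2.77, standard error 0.26, adjusted p = 3.41e-06), Cxcl12 was 6.13-fold lower and Cxcl10 5.64-fold lower. Ccl2, Ccl7, Cxcl11 and Cxcl16 were 2.54-fold, 2.15-fold, 2.02-fold and 1.55-fold lower. DESeq2 did not call Cxcl11 (0.215) or Ccl2 (0.14), and the fit of all 24 libraries did not call Cxcl16 (0.157). The fibroblast sum was 5065 and 4443 in the negative and 2614 and 2125 in the high fraction of these cells.

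Over the 12 populations the highest mean of 7 genes, Cxcl9, Cxcl10, Cxcl11, Cxcl1, Ccl2, Ccl5 and Ccl7, was in IFNγ-treated cells of day 2. For Cxcl1 and Ccl7 these libraries overlapped with those of day 2 control cells, next in the order. Cxcl5 was highest in day 2 control cells, and Cxcl12 in NPCs, overlapping with IFNγ-treated cells of day 2. Cxcl16 was highest in control cells of the medium and negative fractions, which overlapped, at 218 ± 65.4 and 216 ± 39.5 normalized counts (SD, n = 2 each). The lowest mean of Cxcl12 was in ESCs and that of Cxcl16 in NPCs. Levels of different genes were compared per kilobase of exon. The highest member was Cxcl16 in ESCs (27.8 normalized counts per kilobase), Ccl2 in NPCs (95.0), Ccl7 in day 2 control cells (784) and Ccl2 in day 2 IFNγ-treated cells (948). Ccl7 was also the highest by its mean in the remaining populations except the high fraction with IFNγ, where it was Cxcl16 (30.0). The 2 libraries disagreed, however, in all 3 fractions with IFNγ and in the high fraction without it, Cxcl16 being the highest in replicate 1 and Ccl7 in replicate 2. In the negative fraction with IFNγ, for instance, Cxcl16 led Ccl7 by 47.3 to 36.2 per kilobase in replicate 1, and Ccl7 led Cxcl16 by 65.5 to 27.5 in replicate 2. The summed normalized counts of all 10 genes were 2863 and 2481 in day 2 control and 4220 and 6008 with IFNγ, and 81.6 and 120 (119.9) in ESCs.

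For each member with a mean above 10 the 2 other genes with the most similar profile over the 12 population means were found by Pearson's r of log2(normalized count + 1). For the CXCR3 ligands these were Gm12250 (0.96) and Gm4951 (0.91) for Cxcl9, Irgm2 (0.96) and Igtp (0.94) for Cxcl10, and Gbp4 (0.94) and Tap2 (0.94) for Cxcl11. Cxcl12 was most like Efemp2 (0.99) and Pdzrn3 (0.99), Cxcl1 like Cavin1 (0.97) and Ramp2 (0.96), and Ccl2 like Arsk (0.97) and Lox (0.96). Ccl7 was most like Ifi202b (0.98) and Osmr (0.98), Cxcl5 like Ifi44 (0.97) and Aebp1 (0.97), and Cxcl16 like Capn5 (0.98) and Arhgap8 (0.98). These are descriptions over 12 points that share libraries, and the genes were picked from all genes for their likeness. Genes known to be induced by interferons are among them, for the CXCR3 ligands and also for Cxcl5 (Ifi44) and Ccl7 (Ifi202b). Yet neither Cxcl5 nor Ccl7 was called higher with IFNγ in any comparison, and both were high in both arms of day 2. Between members, r was 0.94 for Cxcl1 and Ccl7, 0.85 for Cxcl9 and Cxcl10, 0.80 for the neighbors Ccl2 and Ccl7, and 0.60 for Cxcl1 and Cxcl5.

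Other genes of the pathway were taken from lists. Of 28 other chemokine ligands 7 could be tested at day 2 and 3 were higher with IFNγ, as were 5.03% of all genes. Ccl8, a chemokine gene of the cluster that holds Ccl2 and Ccl7, went from 15.3 and 13.9 normalized counts to 122 and 151, 9.36-fold (log2 fold change 3.13, standard error 0.25, adjusted p = 0.001). Ccl11, eotaxin, went from 70.3 and 59.6 to 115 and 173 (log2 fold change 1.11, adjusted p = 0.0609), and Cx3cl1, fractalkine, from 408 and 460 (459.5) to 676 and 610 (609.5) (log2 fold change 0.57, adjusted p = 0.0349). The median log2 fold change of the 7 was 0.57, against 0.01 over all genes tested. At day 7 Cxcl14 was lower and Ccl27a higher in the negative fraction, by -0.60 and 0.53 on the log2 scale (adjusted p = 0.00694 and 0.025). Of 23 receptor genes 4 could be tested at day 2, and that of CXCR3 had at most 2.07 normalized counts in any library. Of 5 receptor genes tested in the negative fraction 1 was higher and 3 lower, where 31.1% of all genes were called higher and 30.8% lower. The one that was higher was Ackr4, a scavenging receptor, from 56.0 and 44.0 to 114 and 91.1 (log2 fold change 1.02, adjusted p = 0.00335).

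Of the genes from the IFNγ receptor to the promoter, Irf1 had a log2 fold change of 4.37 at day 2 (adjusted p = 5.21e-06), and Jak2 of 0.33 (adjusted p = 0.0243). At day 5 Irf1 was higher with IFNγ by 1.88 on the log2 scale (adjusted p = 0.000234). At day 7 it was higher in each fraction, by 1.14 in the negative, 0.67 in the medium and 0.32 in the high fraction. Ifngr1, the receptor subunit that binds IFNγ, was lower in each fraction, by -0.67, -1.04 and -0.94 on the log2 scale (adjusted p = 0.000656, 3.25e-05 and 0.000418). In the list of NF-κB genes 9 were tested, of which 2 were higher and 4 lower in the negative fraction, and 2 higher and 5 lower in each of the other fractions. In the same comparisons 31.1%, 33.3% and 18.1% of all genes were called higher and 30.8%, 29.6% and 20.4% lower. Nfkbia, an NF-κB inhibitor and target, was lower in each fraction (log2 fold change -0.61, -0.41 and -0.33), and Nfkb1, an NF-κB subunit, was higher in each (0.21, 0.42 and 0.28). Adam10, a protease that sheds CXCL16 from the membrane, was higher with IFNγ at day 2 (0.26, adjusted p = 0.0643) and lower at day 7 in the negative (-1.03), medium (-0.95) and high (-0.27) fractions.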

How the data were processed

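RNA-seq was made from ribosomal RNA–depleted total RNA with a stranded kit, in 2 libraries of each of 12 populations. The authors used STAR with WASP for alignment to a copy of mm10 in which SNPs of both parental strains were masked, counted reads per gene with HTSeq 0.6.1, and divided the counts by DESeq2 size factors. Those normalized counts are the signal values deposited. The strand setting of the counting is not given in the sources used here. A deposited table of allelic fractions of X-linked genes was not used.

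Dividing each column by its smallest step gave whole numbers for 100.0% of values (tolerance 0.01) and so recovered 24746109 to 37056508 reads per library (median 28332222.5). A group whose libraries each had 3 reads or fewer counted as at the floor. Precision at low values is limited by counting, and duplicates from PCR are not independent molecules.

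Groups followed the labels. limma 3.58.1 in R 4.3.3 (lmFit, eBayes with trend) was run on log2(normalized count + 1) of genes with a mean above 10 in the libraries compared, with Benjamini-Hochberg adjustment over all genes tested, a threshold of 0.1 and two-sided tests. Differences between IFNγ effects were interaction terms in the 8 libraries concerned. With 2 libraries a group, an exact permutation test of a single gene cannot go below p = 0.33. Alternatives were a pseudocount of 0.1, no filter, rescaling to equal totals, all 24 libraries in 1 fit, a replicate block, edgeR 4.0.16 (quasi-likelihood) and DESeq2 1.42.0 on the recovered reads, and leaving out each library. The scripts were tested on simulated data. Gene identifiers were matched to GENCODE release 21 for the mouse (95.0% of identifiers matched), and promoters to RefSeq on GRCm38.p6.

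The 10 genes, the gene lists and the marker lists were chosen with earlier results of these data known. Named besides the members were genes of each list past the threshold in at least 1 IFNγ comparison with a mean of at least 100 in 1 group, at most 6 per list. For profiles, genes with a mean of at least 100 over all libraries were named. Cxcr3 and Cxcr6, receptor genes of members, Cxcl15 and the ratio of Ccl2 to Ccl7 were chosen after their values were seen. Some genes of the lists are not reported here.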

Additional observations from a re-analysis of the deposited data

Results flagged for a closer look

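In 5 cases the IFNγ effect on a member differed between times or fractions in a test of the difference itself (interaction terms in limma, log2 scale). From day 5 to X-GFP–negative cells of day 7, after IFNγ had been withdrawn, the effect on Cxcl10 changed by -4.19, on Cxcl11 by -2.34 and on Cxcl16 by -1.40. Over the same step the effect on Cxcl12 changed by 1.24, from 0.23 to 1.47. Between X-GFP–high and X-GFP–negative cells the effect on Cxcl12 differed by -1.42. The day 5 cells were sorted for SSEA1 alone and the day 7 cells also by X-GFP, so time and sort cannot be told apart in the first 4 of these. Of all genes, 40.3% and 22.8% were called in the same tests.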

How the results depend on the processing

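Over the member genes 67 results were recomputed under 753 alternatives, of which 689 left direction and call as they were, 38 ended a call, 15 made one and 11 turned the direction. None of the 51 called results turned under any of its 578 alternatives, and 37 of them kept their call under each that gave an adjusted p. Alternatives without an adjusted p were not counted, such as DESeq2 for 2 members at day 2 and 2 at day 5. The turned results were all uncalled and came from leaving out 1 library, which gave ranges at day 2 of -0.10 to 0.53 for Cxcl1 and -0.13 to 0.43 for Ccl7, at day 5 of -0.89 to 0.54 for Cxcl1 and -0.069 to 0.53 for Cxcl12, in the negative fraction of -0.27 to 0.50 for Cxcl10, in the medium fraction of -0.059 to 0.53 for Cxcl10 and -0.047 to 0.73 for Ccl2, and in the high fraction of -0.22 to 0.30 for Cxcl12.

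Counts of members called moved by over 1.5 times as follows, and the cause was not tested. DESeq2 called 3 in the medium fraction, 1 in the high fraction, 2 for day 5 minus day 2 and 0 for the high minus the negative fraction. Without the filter on low values 1 was called in the high fraction, 0 for the high minus the negative fraction, and 8 from NPCs to day 2, where more genes could be tested. With all 24 libraries in 1 fit 3 were called for day 5 minus day 2, and with equal totals 1 for the medium minus the negative fraction. Leaving out 1 library gave 3 to 5 in the medium fraction (3 without control replicate 1), 2 to 4 in the high fraction (2 without IFNγ-treated replicate 2), and 0 to 1 for both day 5 minus day 2 and the high minus the negative fraction. In the other gene lists together, 7 genes were called at day 2 (4 to 5 with 1 library left out), 2 at day 5 (8 with all 24 libraries in 1 fit) and 18 in the high fraction (9 without the filter, 10 with DESeq2, 4 to 16 with 1 library left out). Over all genes, calls at day 2 numbered 1332, and 693 without the filter and 651 to 998 with 1 library left out (651 and 707 without control replicates 1 and 2, 669 without IFNγ-treated replicate 2). At day 5 they numbered 330, and 141 without the filter, 2455 with all 24 libraries, 912 with DESeq2 and 117 to 1823 with 1 library left out (150 and 189 without control replicates 1 and 2, 1823 and 117 without IFNγ-treated replicates 1 and 2). Without control replicate 1 the count in the high fraction was 2741, against 2830 higher and 3175 lower with all of them. For day 5 minus day 2 there were 107, and 290 with all 24 libraries, 260 with DESeq2 and 51 to 461 with 1 library left out (57 without day 2 control replicate 2, 51 and 62 without day 2 IFNγ-treated replicates 1 and 2, 461 without day 5 IFNγ-treated replicate 1), and for the medium minus the negative fraction 2449, and 1548, 1514 and 1525 without the filter, with all 24 libraries and with DESeq2. That count was 987 to 3267 with 1 library left out (1390 and 1353 without control replicate 1 and IFNγ-treated replicate 2 of the negative fraction, 1052, 987 and 1609 without control replicates 1 and 2 and IFNγ-treated replicate 1 of the medium one). For the negative fraction minus day 5 it was 6211, and 3916 without control replicate 1 of the negative fraction, and for the high minus the negative fraction 3588, and 2145 without that library and 1953 without control replicate 2 of the high fraction. With equal totals the calls for the negative fraction minus day 5 were 4133 higher and 2428 lower (2746 and 3465 otherwise), for the medium minus the negative 399 and 2867 (1142 and 1307), and for the high minus the negative 656 and 4071 (1487 and 2101).

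The replicate numbers are shared between groups, but no source says that they mark a common culture. Deviations of same-numbered libraries correlated at 0.41 and 0.36 at day 2 and day 5, at 0.19, 0.11 and 0.02 in the day 7 fractions and at -0.15 between day 2 control cells and NPCs. With the replicate block 8 members were called at day 2, among them Cxcl5, lower (adjusted p = 5.54e-07), and Cxcl12, higher (0.000326), and 5 at day 5, among them Ccl2, higher (0.000147), and Ccl7, lower (0.0247). Ccl2 was also called higher in the negative fraction (0.0875). The block called 1 member for day 5 minus day 2, and in the other lists 16 genes at day 2 and 10 at day 5. Over all genes the block gave 4995 calls at day 2, 3379 at day 5, 170 for day 5 minus day 2 and 4190 for the medium minus the negative fraction. A crossed block for day 2 control cells against NPCs, chosen after seeing the data, called Cxcl12 lower (adjusted p = 0.00714).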

Other observations

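Cxcl15 is a chemokine gene outside the 10. It had 399 and 973 normalized counts in NPCs and no read in ESCs, at least 236-fold higher. Day 2 control cells had 113 and 55.6 and IFNγ-treated cells 185 and 92.0, which overlapped, and no later library had more than 2.66. The gene was singled out after its values were seen.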
